A study of Mus musculus with 24 samples.

Results

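The genes described here encode aminoacyl-tRNA synthetases, the enzymes that load amino acids onto transfer RNAs. They were taken by name as 36 of the 18919 genes listed in the count table of a study of mouse microglia. Of these, 20 encode cytosolic enzymes or subunits and 16, whose symbols end in 2, encode mitochondrial ones. All 36 passed the filter on low counts and were tested, so no member was lost. Primary microglia, the resident macrophages of the brain, were taken either from C57BL/6 mice, the wild type (WT), or from the B6.129S4-Cd14tm1Frm/J strain (KO), which carries a targeted mutation of Cd14 in each of its groups. The labels give the age p0 for the animals of every group. Cells of each strain were left untreated or exposed for 3 h to Re-LPS at 0.1 ng/ml, to Re-LPS at 10 ng/ml or to mouse fibronectin at 100 µg/ml (FN). Re-LPS is a lipopolysaccharide, fibronectin is a protein of the extracellular matrix, and CD14 is a surface protein that hands lipopolysaccharide to the receptor TLR4. RNA was sequenced from 3 libraries in each of the 8 groups, 24 in all, described by the submitters as separate cell preparations.

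Translation in the cytosol and translation inside mitochondria use largely separate sets of synthetases, both encoded in the nucleus. Exceptions are Gars and Kars, which each serve both compartments, and Eprs, which joins the glutamyl and the prolyl enzyme in a single protein. Several cytosolic synthetases are bound in a multisynthetase complex. Many cytosolic synthetase genes are known targets of ATF4, the transcription factor of the integrated stress response, and Wars, the cytosolic tryptophanyl enzyme, is known as an interferon-induced gene.

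The labels were checked against the counts first. Cd14 lay between 2.14 and 6.37 CPM (read counts relative to the TMM-scaled library size) in the 12 KO libraries and between 338 and 5329 CPM in the 12 WT libraries. The 9 microglial marker genes summed to 6036 to 8569 CPM in every library. The list of vascular and fibroblast markers summed to 1.10 to 2.41 CPM in untreated WT cells and 8.68 to 27.8 CPM in WT cells at LPS 10 ng/ml, with 19.05 to 30.04 CPM in KO cells at that dose and 1.63 to 3.83 CPM in KO cells with FN. Pdgfrb carried that increase, with up to 28.99 CPM, whereas Cldn5, Col1a1, Col1a2 and Dcn stayed between 0 and 0.63 CPM in all libraries. The 8 astrocyte markers summed to 11.5 to 43.9 CPM, with Gfap at 0 to 1.03 CPM. The 9 markers of the oligodendrocyte lineage summed to 85.98 to 362 CPM, the 5 neuronal markers to 0.95 to 37.1 CPM and Ccr2 and Cd79a, of other leukocytes, to 0.18 to 8.31 CPM. The part of these other cells in the results below was not tested. In bulk RNA, a lower share of a cell type and less RNA per cell cannot be told apart. Total counts ran from 14939019 to 22143774 per library.

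Short stretches of the promoters are shown because the cytosolic genes that hold one motif will be followed through the comparisons. RefSeq promoter windows (GRCm38.p6, 250 bases before to 50 after each start site) were matched for 27 of the 36 genes, 13 cytosolic and 14 mitochondrial. The motif TGATGNAA, a form of the element that ATF4 can bind, was searched on both strands. It occurs in 3.97% of the 32851 windows of all genes, in 5 of the 13 cytosolic genes and in 0 of the 14 mitochondrial genes. In the 30 bases printed 5′ to 3′ on the gene's own strand, capitals mark the motif, which is read on the opposite strand except in Yars.
Aars, bases 10 to 17 from the start site, within chr8:111033840-111033869: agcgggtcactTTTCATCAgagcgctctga
Gars, bases -30 to -23, within chr6:55037960-55037989: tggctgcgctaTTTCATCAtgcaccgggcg
Iars, bases 8 to 15, within chr13:49682126-49682155: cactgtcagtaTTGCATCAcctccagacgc
Tars, bases -15 to -8, within chr15:11399655-11399684: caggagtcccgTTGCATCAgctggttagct
Yars, bases 4 to 11, within chr4:129189895-129189924: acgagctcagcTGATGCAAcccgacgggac
A match is a description of the letters and does not show binding. Of the other motifs searched on both strands, TTCNNNGAA (gamma-activated site, 8.3% of all windows) was found in Aars, Kars and Nars2, and CACGTG (E-box, 7.15%) in Aars, Farsb, Iars, Tars and Ears2. The interferon-stimulated response element (3.44%) was found in Qars, and the NRF1 site (4.6%) in Farsb, Kars, Tars, Iars2 and Mars2. None of these matches overlapped with one of TGATGNAA.

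Per length of merged exon, the cytosolic genes were the more abundant class before any stimulus. In untreated WT cells the median cytosolic gene had 15.6 RPKM (CPM per kilobase of exon) and the median mitochondrial gene 2.62 RPKM. The order ran from Mars2, the mitochondrial methionyl enzyme, at 0.501 ± 0.15 RPKM (SD, n = 3) and Ears2 at 0.649 ± 0.13 RPKM up to Nars, the cytosolic asparaginyl enzyme, at 61.3 ± 3.6 RPKM. Mars2 and Ears2 overlapped in their spread, as did most neighbours in the middle of the cytosolic range. Iars2 at 8.85 ± 0.46 RPKM and Hars2 at 7.14 ± 0.63 RPKM reached the low end of the cytosolic class. Lars2 stood at 27.8 ± 22 RPKM, with a spread almost as large as its mean, and is described separately below.

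In WT cells, LPS at 10 ng/ml raised many cytosolic synthetase genes and lowered many mitochondrial ones. Of the 20 cytosolic genes 11 rose and 0 fell, and of the 16 mitochondrial genes 0 rose and 7 fell, at an adjusted p under 0.05 in edgeR's quasi-likelihood test over 13294 genes. That is 18 of 36 members called, where 49.4% of all genes tested were called, 23.3% higher and 26.1% lower, so the number called is near the background and the classes differ in direction. Without regard to a test, all 3 libraries at this dose lay above all untreated ones in 14 cytosolic genes and below them in 12 mitochondrial genes, as they did in 26.7% and 31.3% of all genes. The median log2 fold change was 0.64 for the cytosolic class, -0.46 for the mitochondrial class and -0.01 for all genes. These directions are relative to the median gene: with library totals as the only scaling, the median of all genes was -0.80, the cytosolic median -0.15 and the mitochondrial median -1.25. Under that scaling Gars, Hars, Iars, Tars and Yars lay below 0.

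Wars (chr12:108860030-108894174, minus strand; GENCODE vM21 on GRCm38 for all gene positions) had the largest rise among the members called. Its level was 54.2, 53.9 and 55.3 CPM in the untreated WT libraries and 231, 214 and 260 CPM at LPS 10 ng/ml. The groups are far apart, and the fold change was 4.31 (log2 2.11 ± 0.15 SE, adjusted p = 2.4e-09). Rars (chr11:35808381-35834506, minus strand), the arginyl enzyme of the multisynthetase complex, went from 65.1, 84.1 and 66.0 CPM to 255, 255 and 258 CPM, a log2 change of 1.84 ± 0.18. The stimulated Rars libraries agree closely and none overlaps with an untreated one. Farsa (chr8:84856989-84869257, plus strand), the alpha subunit of the phenylalanyl enzyme, went from 36.7, 38.2 and 32.6 CPM to 97.6, 94.6 and 91.5 CPM, a log2 change of 1.40 ± 0.10. Farsb, the beta subunit of that enzyme, had a log2 change of -0.18 ± 0.19 (adjusted p = 0.51).

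Aars (chr8:111033144-111057664, plus strand), the alanyl enzyme, rose from 165, 191 and 130 CPM to 427, 406 and 367 CPM, a log2 change of 1.31 ± 0.21 (adjusted p = 4.2e-05). The groups do not overlap. Aars shares 1326 exon bases with Exosc6 on the same strand, and how reads there were assigned is not given in the sources used here. Kars, the lysyl enzyme, and Cars, the cysteinyl enzyme, rose by log2 1.17 ± 0.13 and 1.08 ± 0.15. The other called rises were smaller, from Hars at 0.54 ± 0.07 to Iars at 0.78 ± 0.23, with Gars at 0.76 ± 0.21, Tars at 0.74 ± 0.20 and Yars at 0.77 ± 0.19 between them. Without WT LPS 10 ng/ml replicate 1, Iars was no longer called (log2 0.61, adjusted p = 0.053). All 5 genes with the TGATGNAA motif were among the rises, with log2 changes of 0.74 to 1.31. Of the 8 cytosolic genes with a window and without the motif 2 rose, Farsa and Kars, in the fit without a block. With the block within genotype Eprs and Mars of these were called higher too. The other cytosolic genes have no window and could not be searched: of these Wars, Rars, Cars and Hars rose, and Lars, Nars and Vars were not called without a block. With library totals as the only scaling, Gars, Iars, Tars and Yars of the motif genes had a negative log2 change. The part of the motif in these changes was not tested.

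The remaining 9 cytosolic genes were not called. Eprs had levels of 159, 215 and 153 CPM in untreated cells and 264, 297 and 210 CPM at LPS 10 ng/ml. The groups overlap at a single library, and the log2 change was 0.55 ± 0.29 (adjusted p = 0.14). In a fit with the replicate number as a block within each genotype, Eprs was called (adjusted p = 5.28e-06), and Farsb (-0.18) and Sars (-0.20) were called lower. Lars (0.33), Mars (0.22) and Nars (0.33) were called higher in that fit. Dars, Qars, Sars, Vars, Lars, Mars and Nars had log2 changes between -0.20 and 0.33. Across the 6 comparisons with untreated cells, without a block, Dars, Eprs, Farsb, Qars, Sars and Vars were never called, and the other 14 cytosolic genes rose in at least 1.

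**Figure D1:**
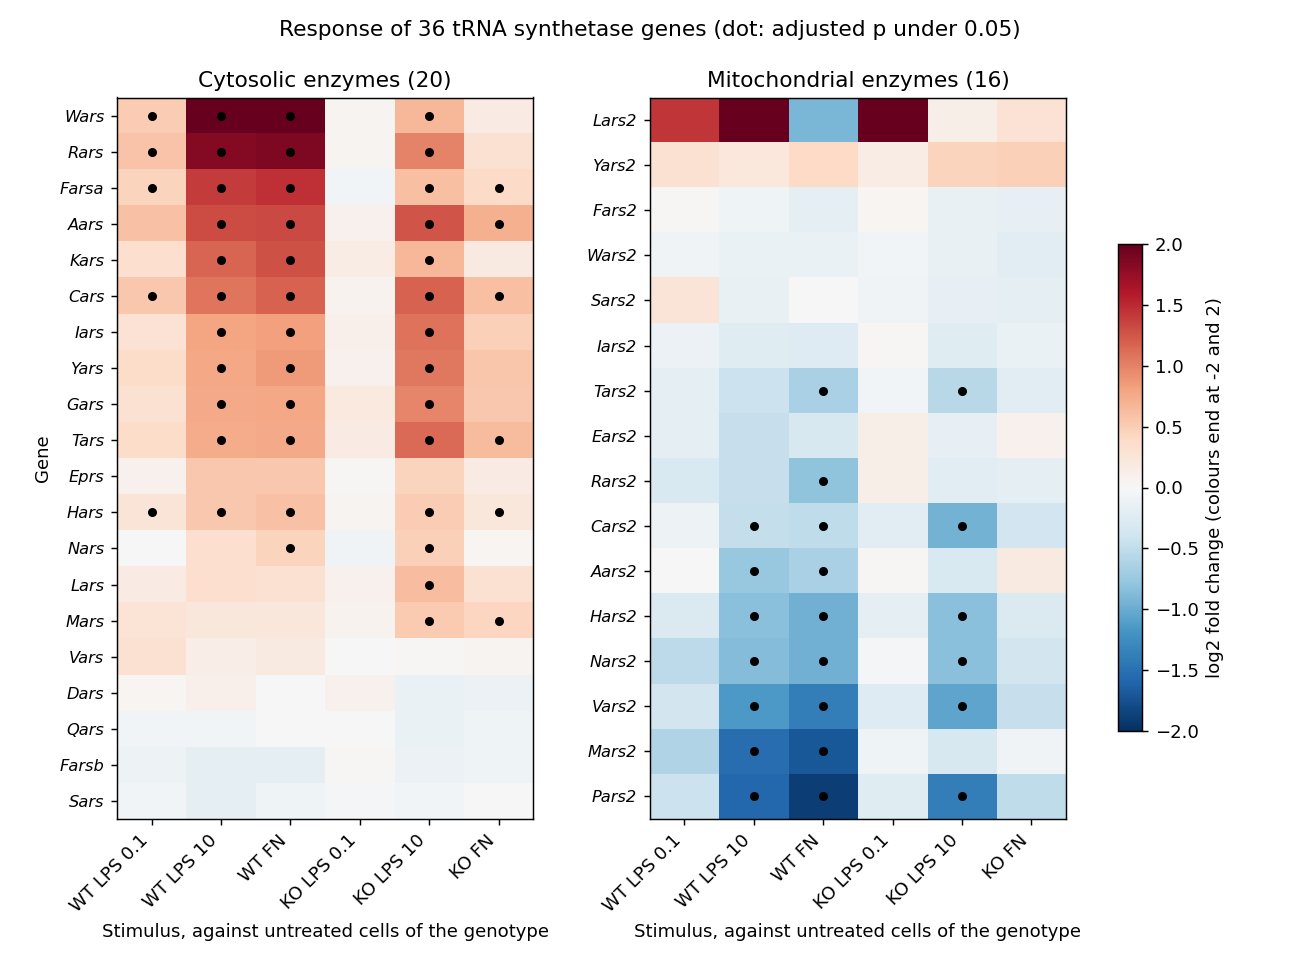
Log2 fold change of each synthetase gene (rows, sorted by the WT response to LPS 10 ng/ml) in 6 comparisons with untreated cells of the same genotype (columns, doses in ng/ml); black dots mark adjusted p under 0.05 and colours end at -2 and 2. Dots on the cytosolic side are all on rises and dots on the mitochondrial side are all on falls, and Lars2, at the top right, has strong colours and no dot.

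On the mitochondrial side, Pars2 (chr4:106651069-106655282, plus strand), the prolyl enzyme, had the largest fall. It went from 7.22, 4.64 and 6.31 CPM in untreated WT cells to 2.23, 1.42 and 2.48 CPM at LPS 10 ng/ml, without overlap. The level was 2.96-fold lower (log2 -1.57 ± 0.27, adjusted p = 7.0e-05). Mars2 (chr1:55237177-55248470, plus strand) had 6.75, 6.58 and 3.65 CPM before and 1.57, 2.54 and 1.74 CPM after, and fell by 1.53 ± 0.28 on the log2 scale. Vars2 (chr17:35655634-35667592, minus strand), the valyl enzyme, had 15.9, 15.3 and 16.3 CPM before and 6.69, 8.16 and 6.70 CPM after, and fell by 1.14 ± 0.19. In each of these genes every stimulated library lay below every untreated one.

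Smaller falls were called for Nars2 (-0.87 ± 0.27), Hars2 (-0.84 ± 0.16), Aars2 (-0.75 ± 0.16) and Cars2 (-0.47 ± 0.14). Without WT LPS 10 ng/ml replicate 3, Nars2 (-0.58, adjusted p = 0.0553) and Cars2 (-0.38, adjusted p = 0.055) were not called. Wars2, the mitochondrial counterpart of Wars, stayed between 12.1 and 14.3 CPM in the untreated and LPS 10 ng/ml libraries of WT cells, with a log2 change of -0.13 ± 0.09 (adjusted p = 0.3). Ears2, Fars2, Iars2, Lars2, Sars2, Wars2 and Yars2 were not called in any of the 6 comparisons with untreated cells without a block. With the replicate block within genotype, Yars2 was called higher in WT FN (0.39), WT LPS 0.1 ng/ml (0.30), KO LPS 10 ng/ml (0.46) and KO FN (0.48), which makes it the mitochondrial gene that goes against its class. That fit called Iars2 lower in WT LPS 10 ng/ml (-0.25), WT FN (-0.27) and KO LPS 10 ng/ml (-0.25), and Wars2 lower in KO FN (-0.23). Iars2 shares 2034 exon bases with Rab3gap2 on the opposite strand, and reads of the pair cannot be told apart if strand was not used.

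The levels of the members not described one by one are given as the range over all 24 libraries. The calls counted beside them are those of the fit without a block. Among cytosolic genes never called against untreated cells, Dars lay between 51.4 and 102.8 CPM, Qars between 107.00 and 147.7 CPM, Sars between 105.2 and 144.7 CPM, Vars between 38.2 and 78.4 CPM and Farsb between 38.5 and 60.1 CPM. Cars, called in 5 of the 6 comparisons, ranged from 51.6 to 160.9 CPM. Iars (59.6 to 192.4 CPM) and Yars (32.7 to 107.9 CPM), called in 3, had wide ranges as well. Nars (231.4 to 447.03 CPM) and Mars (49.3 to 89.99 CPM) were called in 2 and Lars (61.8 to 144.5 CPM) in 1. Mars shares 68 exon bases on the opposite strand with Ddit3, a stress-induced transcription factor gene. Among the mitochondrial genes, Nars2 (2.30 to 8.28 CPM) and Cars2 (6.31 to 13.8 CPM) were called in 3, Tars2 (13.2 to 34.1 CPM) in 2 and Rars2 (5.92 to 17.3 CPM) in 1. Ears2 (2.09 to 5.46 CPM), Sars2 (6.97 to 11.7 CPM), Yars2 (8.36 to 18.7 CPM), Fars2 (11.5 to 17.5 CPM) and Iars2 (54.3 to 89.2 CPM) were called in none.

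**Figure D2:**
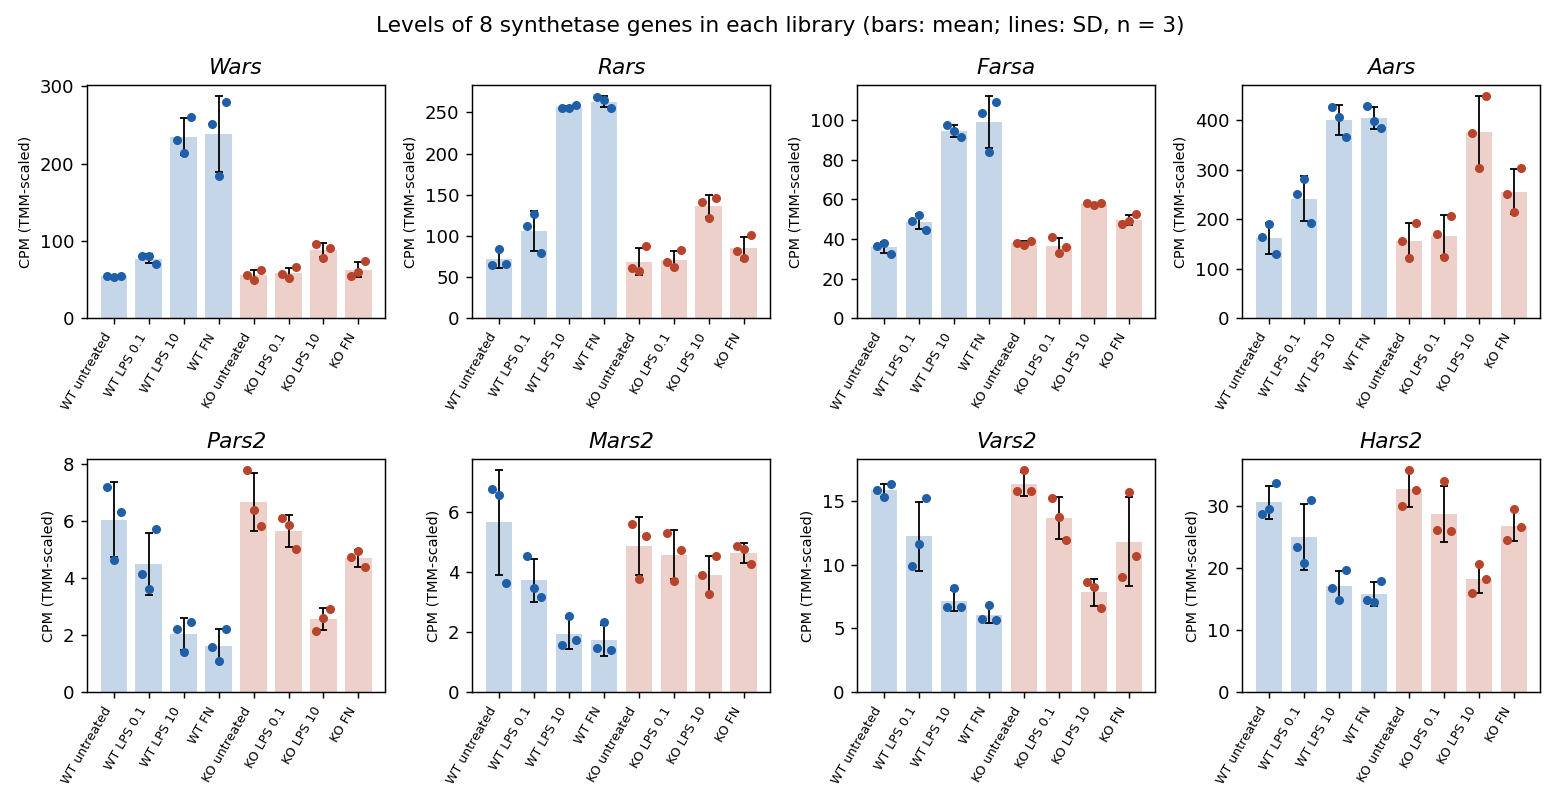
TMM-scaled CPM of 4 cytosolic (top) and 4 mitochondrial (bottom) genes in each library, with WT groups in blue and KO groups in red; bars are means and lines SD of 3 libraries, and LPS doses are in ng/ml. Wars, Rars and Farsa are highest in WT cells with LPS 10 ng/ml or FN and lower in the matching KO groups, whereas Aars at LPS 10 ng/ml is at a similar level in both genotypes.

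Fibronectin also raised cytosolic and lowered mitochondrial members in WT cells. The comparison shares its untreated libraries with that of LPS 10 ng/ml. Cytosolic genes rose in 12 cases and fell in 0, and mitochondrial genes fell in 9 cases and rose in 0, against 50.2% of all genes called, 23.7% higher and 26.5% lower. Wars had 252, 184 and 279 CPM (log2 2.13 ± 0.15), Rars 269, 264 and 255 CPM (1.87 ± 0.18) and Pars2 1.60, 1.09 and 2.22 CPM (-1.88 ± 0.27). Their ranges overlap with those at LPS 10 ng/ml. Further large changes were Farsa (1.46 ± 0.10), Aars (1.32 ± 0.21), Kars (1.27 ± 0.13) and Cars (1.18 ± 0.15) upward, and Mars2 (-1.70 ± 0.28), Vars2 (-1.38 ± 0.19) and Nars2 (-0.97 ± 0.27) downward. Nars (0.45 ± 0.14), Rars2 (-0.81 ± 0.25) and Tars2 (-0.65 ± 0.21) were called here and, without a block, not at LPS 10 ng/ml. With the replicate number as a block they were called at LPS 10 ng/ml too (adjusted p = 0.0348 for Nars, 0.00265 for Rars2 and 0.0249 for Tars2), and without a block all 3 calls with FN were lost when WT FN replicate 1 was left out. The 5 genes with the TGATGNAA motif were among the rises, as were 2 of the 8 with a window and without it, Farsa and Kars. With the block within genotype Eprs and Mars, without the motif, were called higher too. With library totals as the only scaling, the median of all genes was -0.78, the cytosolic median -0.12 and the mitochondrial median -1.43, and Gars, Hars, Nars and Tars lay below 0.

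Compared directly in WT cells, FN and LPS 10 ng/ml differed in 0 of 36 members, where 0% of all genes were called, and 1 member had an unadjusted p under 0.05. DESeq2 and limma also called 0 members. The 95% interval of the difference was -0.29 to 0.33 for Wars, -0.34 to 0.41 for Rars and -0.88 to 0.26 for Pars2 on the log2 scale. Larger differences than these are outside the intervals, and smaller ones could not be seen with 3 libraries per group.

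LPS at 0.1 ng/ml moved few members in WT cells. Cars (0.54 ± 0.15), Farsa (0.44 ± 0.10), Hars (0.26 ± 0.07), Rars (0.57 ± 0.18) and Wars (0.50 ± 0.15) rose and 0 members fell, 5 of 36, where 15.6% of all genes were called, 9.94% higher and 5.66% lower. Wars had 80.5, 80.3 and 70.8 CPM, above every untreated library and below every library at LPS 10 ng/ml. Without WT untreated replicate 1 or 3 or WT LPS 0.1 ng/ml replicate 2, 1 member was called, Farsa. Without WT LPS 0.1 ng/ml replicate 1, 2 members were called, and without replicate 3 of that group, 8. With the replicate block within genotype 19 members were called, 14 higher and 5 lower, beside 41.5% of all genes. With library totals as the only scaling none of Cars, Farsa, Hars, Rars and Wars was called. Of the 5 genes with the TGATGNAA motif 0 were called without a block, with log2 changes of 0.29 to 0.58. Of the 8 with a window and without the motif 1 rose, Farsa. With the block within genotype all 5 motif genes were called higher, as were Farsa, Kars and Mars without the motif.

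Between the doses in WT cells, 7 cytosolic genes were higher and 6 mitochondrial genes lower at 10 than at 0.1 ng/ml, where 32.2% of all genes were called, 14.8% higher and 17.4% lower. The largest differences were Wars (1.61 ± 0.15), Rars (1.27 ± 0.18), Farsa (0.96 ± 0.10), Kars (0.84 ± 0.13), Aars (0.73 ± 0.21) and Cars (0.54 ± 0.15). Pars2 (-1.14 ± 0.27), Mars2 (-0.93 ± 0.28), Vars2 (-0.77 ± 0.19) and Aars2 (-0.75 ± 0.16) led the lower side. The calls of Aars, Hars2, Mars2 and Sars2 were each lost when a single library was left out. With library totals as the only scaling Cars (-0.022) and Hars (-0.28) changed sign. The block within genotype called 21 members, 13 higher and 8 lower, near its share of 57% of all genes. Without the libraries rich in the ribosomal RNA gene Rn45s, described below, 7 were called, beside 17.9% of all genes.

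Because scaling cancels in a ratio within a library, each cytosolic enzyme was also divided by its mitochondrial counterpart, in 16 pairs with Eprs set against both Ears2 and Pars2. The ratios of WT libraries at LPS 10 ng/ml and untreated WT libraries did not overlap in 14 of 16 pairs, all with the higher ratio at LPS 10 ng/ml, and the median change was 1.35 on the log2 scale. The share of such pairs among all genes was not computed. Of all single genes, 26.7% lay higher and 31.3% lower without overlap in this comparison. The pairs hold the same members as above, so they are a description and no separate evidence. The Rars to Rars2 ratio shifted by 2.32, the Wars to Wars2 ratio by 2.23, and the Eprs to Pars2 ratio by 2.13. The pairs below 0 were Lars to Lars2 (-0.65) and Sars to Sars2 (-0.05), and both overlapped.

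With FN in WT cells 15 of 16 pair ratios were higher, with a median change of 1.56, and at LPS 0.1 ng/ml 14 were higher, with 8 pairs free of overlap and a median of 0.54. Of all single genes, 16.2% lay higher and 15.1% lower without overlap in WT cells at LPS 0.1 ng/ml. In KO cells the median change was 0.06 at LPS 0.1 ng/ml, 1.13 at LPS 10 ng/ml and 0.50 with FN. No pair was lower without overlap in any of these 6 comparisons. As sums, the cytosolic genes had 6.80 ± 0.44 times the CPM of the mitochondrial genes other than Lars2 in untreated WT cells and 15.3 ± 0.66 times at LPS 10 ng/ml (SD, n = 3). In KO cells the ratio was 6.66 ± 0.61 untreated, 13.5 ± 1.26 at LPS 10 ng/ml and 8.99 ± 0.81 with FN.

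**Figure D3:**
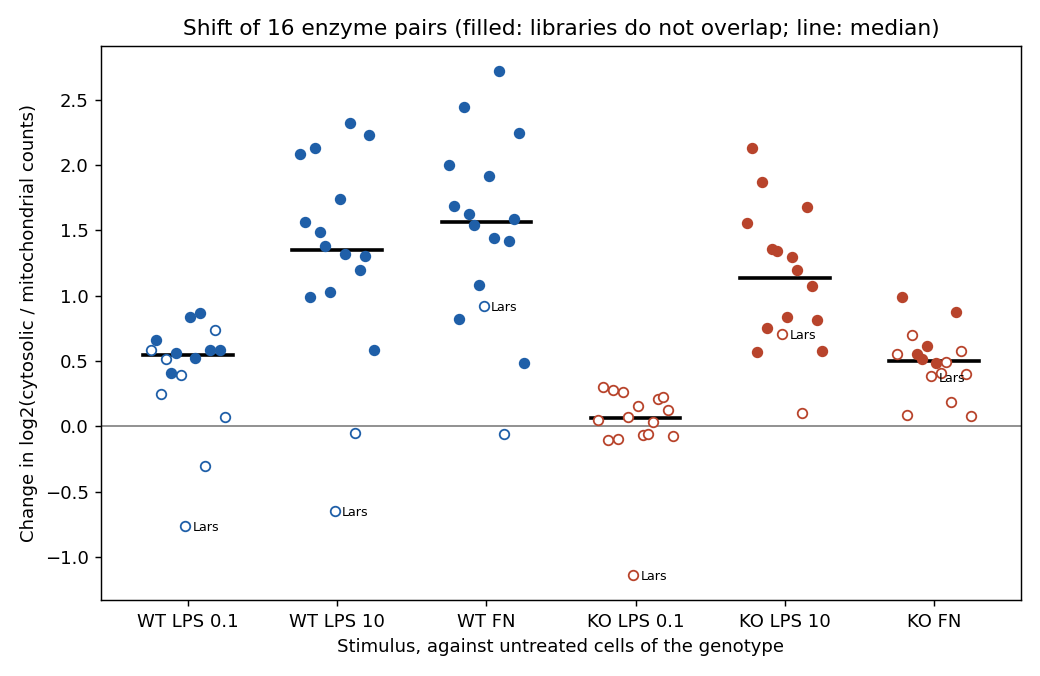
Change in the log2 ratio of cytosolic to mitochondrial counts for 16 enzyme pairs (points) in 6 comparisons with untreated cells, WT in blue and KO in red, doses in ng/ml; filled points have no overlap between libraries and black lines are medians. The medians are 1.35 and 1.56 in WT cells with LPS 10 ng/ml and FN, 1.13 and 0.50 in KO cells with these stimuli, and 0.06 in KO cells at LPS 0.1 ng/ml, and the points marked Lars are the pair with Lars2.

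The KO cells were compared with the WT cells, untreated and under each stimulus, to set responses with and without intact Cd14 side by side. Untreated KO and WT cells differed in 0 of 36 members, where 0.00752% of all genes were called and 0 members had an unadjusted p under 0.05. The 95% interval of the difference was -0.26 to 0.35 for Wars, -0.43 to 0.32 for Rars and -0.40 to 0.68 for Pars2. In KO cells LPS at 0.1 ng/ml changed 0 members by edgeR, where 0.73% of all genes were called (0.722% higher), and 0 had an unadjusted p under 0.05. DESeq2 and limma also called 0 members in both comparisons. Wars had 58.0, 51.8 and 65.8 CPM there and 55.5, 50.04 and 62.9 CPM in untreated KO cells, which overlap.

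At LPS 10 ng/ml the KO cells did respond. Of the cytosolic genes 14 rose and 0 fell, and of the mitochondrial genes 6 fell and 0 rose, where 42.9% of all genes were called, 21.2% higher and 21.6% lower. The median was 0.61 for the cytosolic and -0.28 for the mitochondrial class, and with library totals as the only scaling these were 0.13 and -0.77, the median of all genes -0.50, Nars lay below 0 and Farsa, Hars, Kars, Lars, Mars and Wars were not called. Aars rose most, from 157, 123 and 192 CPM to 374, 303 and 449 CPM, by log2 1.26 ± 0.21, with no overlap. It was followed by Cars (1.18 ± 0.15), Tars (1.14 ± 0.20), Iars (1.08 ± 0.23), Yars (1.05 ± 0.20) and Rars (0.99 ± 0.18). The largest falls were Pars2 (-1.38 ± 0.26), Vars2 (-1.06 ± 0.19), Cars2 (-0.95 ± 0.14) and Hars2 (-0.84 ± 0.16). Gars, the glycyl enzyme, rose by 0.98 ± 0.21, and Lars and Mars rose by 0.62 ± 0.21 and 0.52 ± 0.11. In WT cells Lars and Mars were not called without a block and were called higher with the block within genotype. The calls of Lars, Nars, Nars2 and Tars2 were each lost when a single library was left out, with an adjusted p of 0.0559 for Nars2 and up to 0.249 for Tars2 without KO untreated replicate 3.

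Set against each other, the genotypes differed at LPS 10 ng/ml in 5 members, where 15.9% of all genes were called, 8.05% higher and 7.85% lower. Wars was lower in KO cells by 1.41 ± 0.15 on the log2 scale, with 96.6, 78.6 and 90.6 CPM in KO and 231, 214 and 260 CPM in WT libraries. Rars (-0.91 ± 0.18), Farsa (-0.71 ± 0.10) and Kars (-0.60 ± 0.13) were also lower, and Mars2 was higher (0.99 ± 0.28), a call lost without WT replicate 1 or 3 or KO replicate 3. The response itself differed between genotypes, by the interaction term, for Wars (-1.45 ± 0.21, adjusted p = 0.000483) and Farsa (-0.79 ± 0.14, adjusted p = 0.00256), 2 of 36 members, where 5.28% of all genes were called, 1.96% upward and 3.32% downward. Under library totals alone the Farsa interaction was not called. With the block within genotype 8 interactions were called, among them Rars (-0.84) and Kars (-0.50), where 21.7% of all genes were called, a share like that of the members.

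With TMM scaling, 3 of the 8 genes with a window and without the TGATGNAA motif rose in KO cells at this dose, Farsa, Kars and Mars. The 5 genes with the motif rose in both genotypes. Their log2 changes were 0.98 to 1.26 in KO cells and 0.74 to 1.31 in WT cells, and none had a called interaction. The interaction of these 5 ranged from -0.05 to 0.39, with SE of 0.27 to 0.32, so differences of that size could not be resolved in the fit without a block. With the block within genotype the SE was smaller, and the Tars interaction was called as a larger response in KO cells (0.39 ± 0.10).

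**Figure D4:**
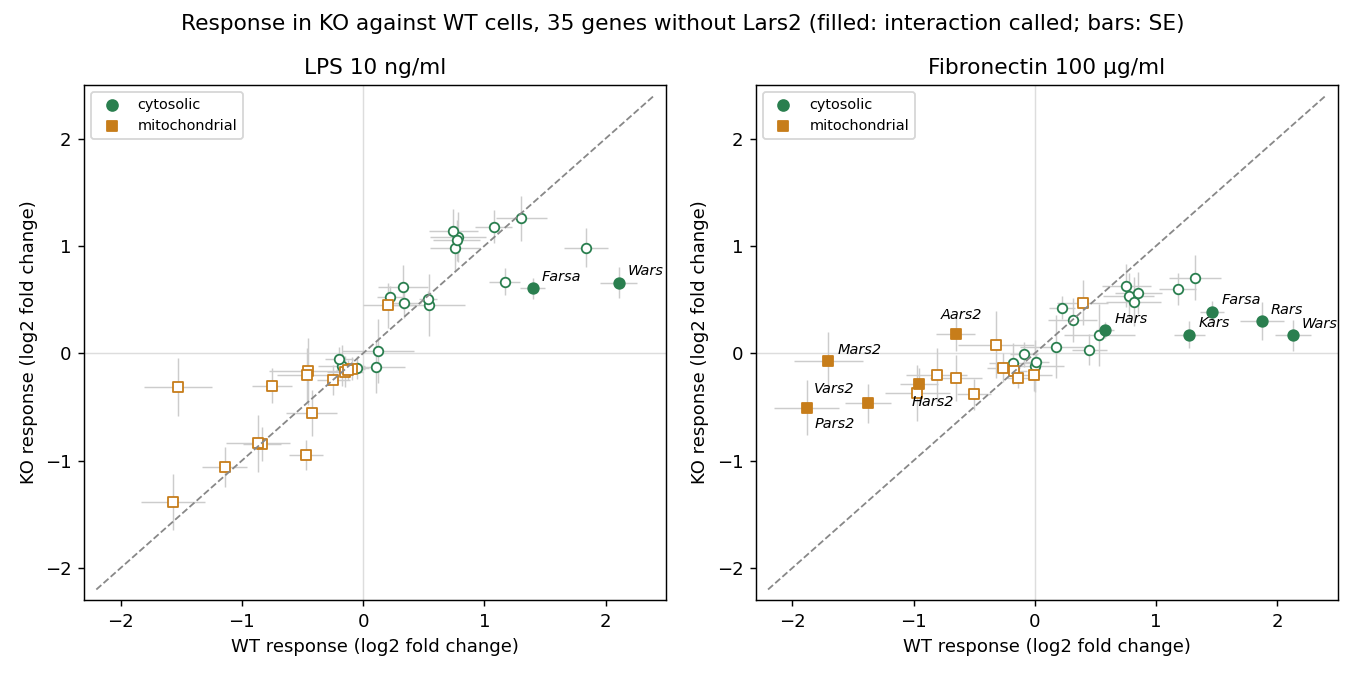
Log2 fold change in KO cells (vertical axis) against that in WT cells (horizontal axis) for 35 genes without Lars2, at LPS 10 ng/ml and with FN; lines are SE, the dashed line marks equal responses, and filled symbols have a called interaction. At LPS 10 ng/ml the filled symbols, Wars and Farsa, lie below the dashed line. Of the open symbols, Rars and Kars also lie below it and Mars2 lies above it. With FN the 10 filled symbols of both classes lie closer to 0 in KO than in WT cells.

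The response to FN was smaller in KO cells for the members of both classes with a called interaction. A smaller response was not particular to these members, since of all genes 16.4% were called with FN in KO cells and 50.2% in WT cells. Mars went the other way (0.43 in KO and 0.22 in WT cells), with an upward interaction called under the block within genotype (0.21). Yars2 had 0.47 in KO and 0.40 in WT cells. The number of members called in KO cells is near the background. In KO cells FN raised Aars (0.70 ± 0.21), Cars (0.60 ± 0.15), Farsa (0.39 ± 0.10), Hars (0.22 ± 0.07), Mars (0.43 ± 0.11) and Tars (0.63 ± 0.20) and lowered 0 members, where 16.4% of all genes were called, 9.23% higher and 7.17% lower. Wars had 54.8, 60.4 and 74.2 CPM, overlapping with the untreated KO libraries, and a log2 change of 0.17 ± 0.15 (adjusted p = 0.55). Of the 5 genes with the TGATGNAA motif 2 rose, Aars and Tars, as did 2 of the 8 with a window and without it, Farsa and Mars. With the block within genotype 18 members were called, 13 higher and 5 lower, beside 44% of all genes. Among the higher ones were Gars, Iars and Yars with the motif and Eprs without it. The calls of the unblocked fit depended on single libraries: 0 remained without KO FN replicate 3, 1 without KO untreated replicate 2, 2 without KO untreated replicate 1 and 3 without KO FN replicate 1.

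The direct comparison of the genotypes with FN called 13 members, where 38.6% of all genes were called, 21% higher and 17.6% lower, so the number called is near the background. The cytosolic genes Wars (-1.92 ± 0.15), Rars (-1.63 ± 0.18), Kars (-1.20 ± 0.13), Farsa (-0.99 ± 0.10), Aars, Cars, Hars and Nars were lower in KO cells, and the mitochondrial genes Pars2 (1.52 ± 0.27), Mars2 (1.41 ± 0.28), Vars2 (0.95 ± 0.19), Aars2 (0.77 ± 0.16) and Hars2 (0.77 ± 0.16) were higher. Under library totals alone Cars, Hars and Nars changed sign and Aars was not called. The calls of Aars, Cars and Nars were also lost without KO FN replicate 1 or 2. Pars2 had 4.76, 4.96 and 4.38 CPM in KO and 1.60, 1.09 and 2.22 CPM in WT libraries, so the groups do not overlap. The interaction was called for 10 members, where 23.1% of all genes were called, 11.8% upward and 11.3% downward, again near the background. These were Wars (-1.96 ± 0.21), Rars (-1.57 ± 0.25), Kars (-1.10 ± 0.18), Farsa (-1.08 ± 0.14) and Hars (-0.36 ± 0.10) downward and Mars2 (1.63 ± 0.39), Pars2 (1.37 ± 0.37), Vars2 (0.91 ± 0.26), Aars2 (0.83 ± 0.23) and Hars2 (0.66 ± 0.22) upward. Hars changed sign under library totals, and Hars2 was not called under scaling by the median of ratios or in 7 of the 12 fits that leave out 1 library. With the block within genotype 19 interactions were called, where 49.3% of all genes were, among them Aars (-0.62) and Iars (-0.33) of the genes with the motif.

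At LPS 0.1 ng/ml the genotypes differed in Farsa alone (-0.41 ± 0.10, adjusted p = 0.0132), where 9.30% of all genes were called (2.97% higher, 6.33% lower), and that call was lost without WT LPS 0.1 ng/ml replicate 1 or 2 or KO LPS 0.1 ng/ml replicate 2 or 3. Without WT LPS 0.1 ng/ml replicate 3, 3 members were called. With the replicate number as a block 6 members were called, all lower in KO cells, beside 18.9% of all genes. No interaction was called at this dose, where 2.29% of all genes were called, 3 members had an unadjusted p under 0.05, DESeq2 called 1, and the block within genotype called Aars, Cars, Farsa and Rars, beside 13.4% of all genes. Within KO cells, 14 members were higher and 5 lower at LPS 10 than at 0.1 ng/ml (36.7% of all genes called, 18.3% higher and 18.5% lower), led by Aars (1.17 ± 0.21), Cars (1.10 ± 0.15), Tars (0.98 ± 0.20), Iars (0.98 ± 0.23), Yars (0.97 ± 0.19) and Rars (0.93 ± 0.18). Between FN and LPS 10 ng/ml in KO cells 11 members differed (17% of all genes called, 7.55% higher and 9.43% lower), with Cars, Hars, Kars, Nars, Rars and Wars lower and Aars2, Cars2, Hars2, Pars2 and Vars2 higher with FN. The block within genotype called 20, and 44.8% of all genes. Only 1 was called without KO FN replicate 2, 4 without KO LPS 10 ng/ml replicate 3, 5 without KO LPS 10 ng/ml replicate 1 and 7 without KO FN replicate 1.

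Lars2, the mitochondrial leucyl enzyme, varied more than any other member and was never called. Its level ran from 34.6 CPM in KO FN replicate 3 to 5910 CPM in WT LPS 10 ng/ml replicate 3. The 3 highest libraries, WT LPS 10 ng/ml replicate 3 (5910 CPM), KO LPS 0.1 ng/ml replicate 2 (4012 CPM) and WT LPS 0.1 ng/ml replicate 3 (2089 CPM), are those in which the ribosomal RNA gene Rn45s held 3.62 to 8.21% of all counts. In the other 21 libraries Lars2 lay between 34.6 and 530 CPM and Rn45s between 0.0342 and 0.785%. Lars2 had 5.62 to 18.8 counts for every 100 of Rn45s, a 3.35-fold range beside the 171-fold range of its CPM. The part of Rn45s in the Lars2 values was not tested.

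**Figure D5:**
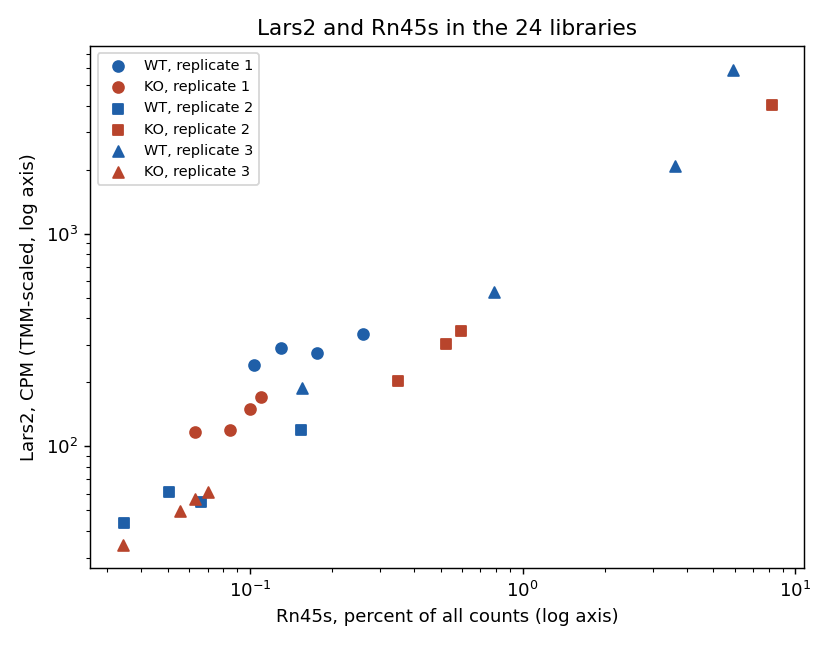
Lars2 level (TMM-scaled CPM, log axis) against the share of counts assigned to Rn45s (percent, log axis) in the 24 libraries, WT in blue and KO in red, with a symbol for each replicate number. The 3 libraries at the upper right hold 2089 to 5910 CPM of Lars2, and the 21 others 34.6 to 530 CPM.

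Hars and Hars2, the cytosolic and the mitochondrial histidyl enzyme, lie head to head on chromosome 18 and share 195 exon bases on opposite strands, near Cd14. Hars (chr18:36766528-36783205, minus strand) is 39.73 kb and Hars2 (chr18:36783008-36792562, plus strand) 56.21 kb from Cd14. They moved in opposite directions in WT cells at LPS 10 ng/ml: Hars went from 41.3, 47.5 and 42.6 to 65.2, 62.3 and 63.0 CPM and Hars2 from 28.6, 29.4 and 33.6 to 16.8, 14.9 and 19.7 CPM. Neither pair of groups overlaps, although the Hars direction turned under library totals. In untreated cells the KO minus WT difference was -0.01 (95% interval -0.16 to 0.15) for Hars and 0.10 (-0.23 to 0.43) for Hars2.

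Other genes of translation and of the stress response were described from lists. Of the 3 scaffold proteins of the multisynthetase complex, Eef1e1 rose at LPS 10 ng/ml, by 1.65 ± 0.30 in WT and 1.55 ± 0.30 in KO cells, whereas Aimp1 (-0.14 ± 0.12) and Aimp2 (-0.13 ± 0.17) were not called. Of the complex's 8 enzymes Iars, Kars and Rars rose in WT cells and 5 were not called, where 23.3% of all genes rose and 49.4% were called. Of 19 mitochondrial aminoacylation and translation factors tested, 2 rose and 12 fell, with a median of -0.53, where 49.4% of all genes were called, 26.1% lower. Gatc, a subunit of the amidotransferase that makes glutaminyl-tRNA in mitochondria, fell by 2.15 ± 0.19, the ribosome recycling factor Gfm2 by 1.75 ± 0.24, the release factor Mtrf1 by 1.45 ± 0.24 and the initiation factor Mtif2 by 1.20 ± 0.17. The elongation factor Tufm (0.23 ± 1.37) and the pseudouridine synthase Pus1 (-0.12 ± 0.15) were not called.

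Of 31 genes of the integrated stress response and ATF4 targets tested, 17 rose and 1 fell in WT cells at LPS 10 ng/ml, with a median of 0.97, where 49.4% of all genes were called, 23.3% higher. In KO cells 20 rose and 1 fell, with a median of 1.16, where 42.9% of all genes were called, 21.2% higher. In WT cells the cystine transporter Slc7a11 (5.43), the stress protein Nupr1 (5.38), the phosphatase subunit Ppp1r15a (4.69) and the glutathione-degrading enzyme Chac1 (2.66) had the largest log2 rises. Atf4 itself, singled out after its values were seen, rose by 1.29 in WT and 1.28 in KO cells. Slc38a2 (0.36) and Shmt2 (0.39) were not called. With FN in KO cells 7 of the 31 rose and 1 fell, beside 16.4% of all genes called.

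Of 5 genes around the kinases of that response, the interferon-induced Eif2ak2 rose by 3.47 ± 0.28 in WT cells with LPS 10 ng/ml, whereas Eif2ak3 (-2.54 ± 0.13), Eif2ak4 (-1.22 ± 0.19) and Eif2ak1 (-0.36 ± 0.09) fell. Of all genes, 23.3% rose and 26.1% fell in that comparison. Eif2ak4, the sensor of uncharged tRNA, was lower by a similar amount in KO cells (-1.28 ± 0.19). Its partner Gcn1l1 was not called in WT cells (0.16 ± 0.08). All 6 interferon reference genes rose in WT cells at LPS 10 ng/ml, led by Cxcl10 (10.01), Ifit1 (8.999), Gbp2 (8.22) and Irf1 (6.06). In KO cells with FN 4 of the 6 rose, with Cxcl10 at 3.42 and Irf1 at 1.99, where 9.23% of all genes rose.

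Of 9 cytosolic elongation and release factors, Eef2k, the kinase that inhibits elongation factor 2, fell by 1.83 ± 0.13, and the release factors Etf1 (1.42 ± 0.25) and Gspt1 (1.14 ± 0.24) rose. Eef1a1 (0.40 ± 0.62) and Eef2 (0.28 ± 0.35) were not called. In this comparison, of WT cells at LPS 10 ng/ml, 23.3% of all genes rose and 26.1% fell. Of 24 genes of tRNA transcription and maturation, 4 rose and 10 fell in WT cells at LPS 10 ng/ml, beside 49.4% of all genes called. The RNA polymerase III subunit Polr3g (-1.78) and the initiation factor Gtf3c4 (-1.29) fell and the subunit Polr3d (1.30) rose, while Gtf3c2 (0.02) and the exporter Xpot (0.17) were not called.

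By Pearson correlation of the mean log2 CPM over the 8 groups, the genes whose pattern was most like that of Wars were Bfar (0.999), Pax4 (0.999), Atad1 (0.997), Rpe (0.997) and Prkx (0.997). Pax4 had group means of -5.17 to 0.49 log2 CPM, so it lay near the floor of the counts in some groups and passed the filter through those where it was high. The 8 means share libraries, depth and scaling, and the likeness is given as a description.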

How the data were processed

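The authors deposited whole read counts for 18919 gene symbols in 24 libraries and a table of 12889 genes whose signal is those counts divided by 1 factor per library. The submitters' processing notes name, without a role or order, the build mm10, Bowtie2 2.1.0 and HTSeq 0.5.4, besides DESeq, SAMtools 0.1.19, CASAVA 1.8.2 and FastQC 0.10.0. The annotation and the use of strand are not given in the sources used here. Total RNA was made into libraries with a TruSeq kit, per the labels' protocols.

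Counts were tested with edgeR 4.0.16 (R 4.3.3): TMM (trimmed mean of M-values) factors, filterByExpr (minimum 10 counts, 15 in all), 13294 genes, 8 groups, 16 residual degrees of freedom and 17 contrasts, with Benjamini-Hochberg adjustment over all genes and a call under 0.05. This fit has no block, so its p-values measure the full spread between these libraries, with the part shared by libraries of the same number. Standard errors are the absolute log2 fold change over the square root of the F statistic. RPKM used merged exon lengths of GENCODE vM21. Alternatives were other scalings and filters, DESeq2 1.42.0, limma 3.58.1 on log2 of the normalized signal plus 1, blocks, groups compared alone and libraries left out.

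Members and gene lists were chosen with earlier results of these data known, and the lists carry no test. Named were Wars, Wars2, Aars, Gars, Hars, Hars2, Eprs, Lars2 and Cd14. Added were, in each contrast, all called members up to 12, otherwise the 6 largest rises and 4 largest falls per class. Each list gave up to 4 called genes with the largest change in WT LPS 10 ng/ml and up to 2 uncalled genes with the highest level. Some items that these rules select are not reported here.

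Whether equal replicate numbers pair libraries was checked over 8320 genes with a mean of at least 10 CPM. Deviations from the group means correlated at 0.67 to 0.98 in all 36 pairs of the same number and genotype and at -0.82 to 0.50 in 72 pairs of other numbers. Across genotypes the 12 pairs of the same number and treatment correlated at 0.33 to 0.91. The counts thus carry a pairing by number that the labels do not state. The main fit leaves this pairing out, and the calls, intervals and standard errors printed without mention of a block come from it. Its standard errors include the variation that libraries of the same number share, and members not called in it can be called with a block. The fits with a block are given beside it as alternatives. On simulated counts for WT LPS 10 ng/ml against untreated (13084 genes), 39 of 50 genes raised by log2 2 and 10 of 50 raised by log2 1 were called, with 2 false calls. These counts were drawn without an effect of the replicate number and with a spread set by the trend over all genes. They check the direction and size of the estimates and do not give the power for single members.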

Additional observations from a re-analysis of the deposited data

Results flagged for a closer look

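The response to a stimulus differed between the genotypes, by the interaction term of the edgeR fit, in 12 cases, and each is given here as the KO response less the WT response, on the log2 scale. At LPS 10 ng/ml these were Wars (-1.45) and Farsa (-0.79). With FN the cytosolic genes were Wars (-1.96), Rars (-1.57), Kars (-1.10), Farsa (-1.08) and Hars (-0.36). The mitochondrial genes with FN were Mars2 (1.63), Pars2 (1.37), Vars2 (0.91), Aars2 (0.83) and Hars2 (0.66). Each of the mitochondrial genes with FN had a fall in WT cells and a log2 change between -0.51 and 0.18 in KO cells, not called in the fit without a block.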

How the results depend on the processing

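The number of members called depended most on scaling, on pairing and, in the small comparisons, on single libraries. With library totals as the only scaling, 1 member was called for WT LPS 0.1 ng/ml, 28 for WT LPS 10 ng/ml, 1 for KO FN, and, between genotypes, 0 at LPS 0.1 ng/ml, 16 at LPS 10 ng/ml and 27 with FN. The FN interaction then called 19, the WT doses 24 and KO FN against LPS 10 ng/ml 7. The shares of all genes called under that scaling were, in the same order, 19, 66.6, 15.3, 9.8, 30.8, 59.8, 43.7, 52.3 and 30%. Under that scaling 17 single values changed sign. They were Gars -0.041, Hars -0.27, Iars -0.020, Tars -0.056 and Yars -0.027 in WT LPS 10 ng/ml, Gars -0.017, Hars -0.21, Nars -0.34 and Tars -0.030 in WT FN, and Nars -0.017 in KO LPS 10 ng/ml. Between genotypes with FN they were Cars 0.17, Hars 0.29 and Nars 0.28, with Hars 0.29 in the interaction. Between the WT doses they were Cars -0.022 and Hars -0.28, and for KO FN against LPS 10 ng/ml Hars 0.057. Another 36 of the 144 single calls kept their sign and were lost.

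With the replicate number as a block within genotype, 19 members were called for WT LPS 0.1 ng/ml, 18 for KO FN, 4, 8 and 19 for the interactions at LPS 0.1 ng/ml, LPS 10 ng/ml and FN, 21 between the WT doses and 20 for KO FN against LPS 10 ng/ml. In the same order, 41.5, 44, 13.4, 21.7, 49.3, 57 and 44.8% of all genes were called, beside members' shares of 52.8, 50, 11.1, 22.2, 52.8, 58.3 and 55.6%. A replicate block shared by the genotypes called 6 members between genotypes at LPS 0.1 ng/ml and 4 interactions at LPS 10 ng/ml, beside 18.9% and 9.63% of all genes. The shared block kept all 144 single calls. The block within genotype kept all 125 on which it was run, which leave out the calls between genotypes under one condition.

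For WT LPS 0.1 ng/ml, no filter on low counts gave 3 calls, leaving out the Rn45s-rich libraries 8, and the groups compared alone 2. The shares of all genes tested were 9.58, 18.5 and 12% in these settings. Groups alone also gave 0 for KO FN, 0 between genotypes at LPS 0.1 ng/ml and 2 for KO FN against LPS 10 ng/ml, beside 11.4, 1.98 and 8.75% of all genes. Between genotypes at LPS 0.1 ng/ml, keeping genes that reach 5 CPM in 3 libraries gave 4, leaving out the Rn45s-rich libraries 2, and DESeq2 3, beside 12.8, 10.4 and 15.4% of all genes. At this dose 1 interaction was called with the 5 CPM filter and 1 with DESeq2, which called 5 interactions at LPS 10 ng/ml. The shares of all genes were 3.47, 5.4 and 9.95%. The WT doses differed in 7 members without the Rn45s-rich libraries, beside 17.9% of all genes. The causes were not tested.

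Leaving out 1 library at a time gave 1 to 8 calls for WT LPS 0.1 ng/ml, 16 to 18 for WT LPS 10 ng/ml, 18 to 21 for WT FN, 18 to 20 for KO LPS 10 ng/ml and 0 to 9 for KO FN. Between genotypes it gave 0 to 3, 4 to 5 and 10 to 13 calls at LPS 0.1 ng/ml, LPS 10 ng/ml and FN, and for the interactions 0 to 1, 2 to 3 and 8 to 11. It gave 10 to 13 between the WT doses, 17 to 19 between the KO doses and 1 to 10 for KO FN against LPS 10 ng/ml. The shares of all genes called in these fits are not reported here, so the ranges do not show whether members depend on single libraries more than other genes. The interactions of Wars and Farsa at LPS 10 ng/ml, and of Wars, Rars, Kars, Farsa, Mars2, Pars2 and Aars2 with FN, were called in each of these fits. Simulated counts, which lacked the pairing and the gene-by-gene spread of these data, do not tell how often a member's change was missed. With 3 libraries per group, low genes such as Pars2, Mars2, Nars2 and Ears2 rest on few counts. Their lowest counts in a library were 15, 19, 25 and 28.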
